A study of Mus musculus with 11 samples.

Results

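Matrix metalloproteinases (Mmp genes), the ADAMTS proteinases (Adamts genes) and the tissue inhibitors of metalloproteinases (Timp genes) were examined on Affymetrix arrays of mouse stomach. The members are all genes whose single symbol names an Mmp, an Adamts or one of Timp1 to Timp4, with 1 probe set per gene. They numbered 44 of 19938 genes, of which 22 are Mmp, 18 are Adamts and 4 are Timp genes. The 11 arrays held 3 groups. The group pChePS_GC held 4 gastric cancer tissues from mice with Pdx-1-Cre, 1 floxed and 1 wild-type Cdh1 allele, and floxed alleles of Trp53 and of Smad4. The group pCP_GC held 3 gastric cancer tissues from mice with Pdx-1-Cre and floxed alleles of Cdh1 and of Trp53, with no floxed Smad4 named. The group NGE held 4 samples of normal gastric epithelium from mice without the Cre, and the labels do not say whether these carried floxed alleles. Both tumour groups are labelled diffuse type, no group was treated, and the ages, sexes and stomach regions are not given in the labels. The Pdx-1 promoter limits recombination to cells of its lineage, so vessels, fibroblasts and leukocytes in the tumour tissue are expected to keep intact alleles. The labels do not state separate mice within a group, so the p-values cover no more than the variation among the deposited samples, which may be technical.

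Metalloproteinases are secreted or membrane-bound enzymes with a zinc ion in the active site. Most are made as inactive proenzymes, and between them they cut collagens, gelatin, proteoglycans and many non-matrix proteins. TIMPs bind the active site and block it, and TIMP-2 also takes part in the activation of pro-MMP-2 by the membrane-type enzyme MMP-14. In healthy stomach many of these genes are quiet, while fibroblasts, macrophages, neutrophils and tumour cells can make different members.

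The members include 10 neighbours on mouse chromosome 9. In RefSeq (GRCm38.p6) they lie in the order Mmp13, Mmp12, Mmp1b, Mmp3, Mmp1a, Mmp10, Mmp8, Mmp27, Mmp20 and Mmp7, and no other protein-coding gene lies between them. Promoter sequences were available for 30 of the 44 members. The AP-1 motif, the letters TGANTCA on either strand, occurred in the 250 bases before the start of 8 of these 30 genes. Counted by promoter, this was 8 of 33. It occurred in 6.75% of the 32851 promoters of the same table. All 8 belong to the chromosome 9 row (Mmp7, Mmp13, Mmp10, Mmp3, Mmp12, Mmp1a, Mmp1b and Mmp20), and 0 belong to the other 20 members with a promoter. The TATA box letters TATAAA occurred on either strand for 9 of the 30 genes (9 of the 33 promoters) and in 12.4% of all promoters. The 150 bases before the start are shown for 7 of the neighbours. They hold Mmp7, the member that differed between the tumour groups, and Mmp13, Mmp10, Mmp3 and Mmp8, which varied widely between tumour arrays. Mmp12, with more even tumour levels, and Mmp1a, a dim neighbour, are shown beside them. AP-1 and TATA box matches are in capitals, and in the sequences shown they do not overlap.
Mmp7: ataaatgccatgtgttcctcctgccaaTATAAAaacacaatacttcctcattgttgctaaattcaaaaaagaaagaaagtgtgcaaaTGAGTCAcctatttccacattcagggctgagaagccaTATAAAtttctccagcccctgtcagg
Mmp13: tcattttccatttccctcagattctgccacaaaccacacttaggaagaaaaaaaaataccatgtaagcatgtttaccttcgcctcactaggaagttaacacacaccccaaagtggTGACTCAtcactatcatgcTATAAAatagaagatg
Mmp10: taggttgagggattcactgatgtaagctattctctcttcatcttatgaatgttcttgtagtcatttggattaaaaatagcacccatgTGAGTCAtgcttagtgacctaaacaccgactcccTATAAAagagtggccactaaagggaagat
Mmp3: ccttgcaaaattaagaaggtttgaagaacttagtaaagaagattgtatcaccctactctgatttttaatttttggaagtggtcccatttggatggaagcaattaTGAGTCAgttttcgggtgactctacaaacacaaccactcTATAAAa
Mmp12: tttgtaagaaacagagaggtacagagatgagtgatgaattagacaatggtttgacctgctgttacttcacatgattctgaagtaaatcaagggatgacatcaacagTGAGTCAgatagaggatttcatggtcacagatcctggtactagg
Mmp1a: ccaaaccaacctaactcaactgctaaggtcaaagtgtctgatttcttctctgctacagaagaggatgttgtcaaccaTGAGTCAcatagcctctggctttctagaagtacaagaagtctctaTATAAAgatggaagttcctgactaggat
Mmp8: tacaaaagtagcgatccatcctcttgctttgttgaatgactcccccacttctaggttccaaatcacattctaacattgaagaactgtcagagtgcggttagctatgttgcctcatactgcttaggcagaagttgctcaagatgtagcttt

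The stretches lie on the plus strand of GRCm38.p6 at chr9:7691940-7692089 (Mmp7), chr9:7272364-7272513 (Mmp13), chr9:7502192-7502341 (Mmp10), chr9:7445672-7445821 (Mmp3), chr9:7347224-7347373 (Mmp12), chr9:7463991-7464140 (Mmp1a) and chr9:7558279-7558428 (Mmp8). The AP-1 match began 63 bases before the start in Mmp7 and Mmp10, 35 bases before it in Mmp13, 46 in Mmp3 and 73 in Mmp1a. Mmp12 and Mmp7 have 2 RefSeq starts each in the table. For Mmp12 the match lies before the later start, 44 bases away, and for Mmp7 before the earlier one. Mmp8 held no AP-1 or TATA box match in this window. A match describes letters only, and no binding was measured.

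The deposited values are log2 signals, and differences below are on that scale. The array medians over all genes lay between 8.25 and 8.34 in pChePS_GC, 8.29 and 8.44 in pCP_GC, and 8.10 and 8.16 in NGE. Pairs of arrays within a group correlated at 0.962 to 0.978 in pChePS_GC, 0.972 to 0.988 in pCP_GC and 0.990 to 0.994 in NGE. With 3 or 4 arrays a group, precision is limited by their number. The genes of 1190 odorant and pheromone receptors served as a gauge of background, and a gene is called dim in a group whose mean lies below their 95th percentile (6.99 in pChePS_GC, 6.86 in pCP_GC and 7.24 in NGE). Where that level is background, a change against a dim group is a lower bound. The gauge itself was lower in both tumour groups, with a receptor median of 5.26 in pChePS_GC, 5.17 in pCP_GC and 5.41 in NGE. A small fall of a gene near that level cannot be told apart from this shift. Gastric epithelial markers checked the labels, with a mean over 13 genes of 10.40 to 12.07 in pChePS_GC, 11.67 to 12.86 in pCP_GC and 13.61 to 13.74 in NGE, and 0 of the 13 were dim in any group. Xist, a transcript of the inactive X chromosome, read 5.72 to 6.02 in pChePS_GC, 5.57 to 5.81 in pCP_GC and 11.54 to 12.66 in NGE. Sex-linked levels therefore differed between the tumour arrays and NGE, as did the tissue. For every member compared with NGE, a part of sex cannot be told apart from that of the tumours.

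Compared with NGE, 17 members rose and 7 fell in pChePS_GC (limma on all 11 arrays, adjusted p under 0.05 over 19938 genes). Over all genes 42.1% were called in that comparison, 18.7% higher and 23.4% lower. The median change of the 44 members was 0.33, beside -0.10 for all genes. In pCP_GC, 17 members rose and 9 fell against NGE, beside 51.8% of all genes called, 20.0% higher and 31.8% lower. The median change of the members there was 0.43, beside -0.12 for all genes. Both comparisons use the same NGE arrays. These shares of higher and lower calls also stand beside the counts against NGE by role, marker list and row of genes below. Of the called members with a change of at least 2-fold, 16 rose and 1 fell in pChePS_GC (6.98% and 3.34% of all genes). In pCP_GC, 16 rose and 1 fell by the same rule (8.13% and 2.83% of all genes). All arrays of pChePS_GC lay above all NGE arrays for 20 members and below them for 5 (17.7% and 22.9% of all genes). All arrays of pCP_GC lay above all NGE arrays for 23 members and below them for 11 (24.0% and 35.6% of all genes). The count of 7 falls in pChePS_GC was 4 without NGE replicate 3, without NGE replicate 4 or without pChePS_GC replicate 1. Over all genes the calls of that comparison, in either direction, numbered 6107, 6131 and 7403 in the same order, beside 8386 with every array. With each array centred on its median, which moved the median of all genes to -0.27 in pChePS_GC and -0.33 in pCP_GC, 17 members rose and 11 fell in pChePS_GC, and 16 rose and 13 fell in pCP_GC. Of all 19938 genes that centring called 2695 higher and 9101 lower in pChePS_GC, against 3728 and 4658 as deposited. In pCP_GC it called 2686 higher and 9716 lower, against 3994 and 6343. As a share of the called genes only, higher calls made up 22.8% in pChePS_GC, against 44.5% as deposited. In pCP_GC they made up 21.7%, against 38.6%.

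**Figure D1:**
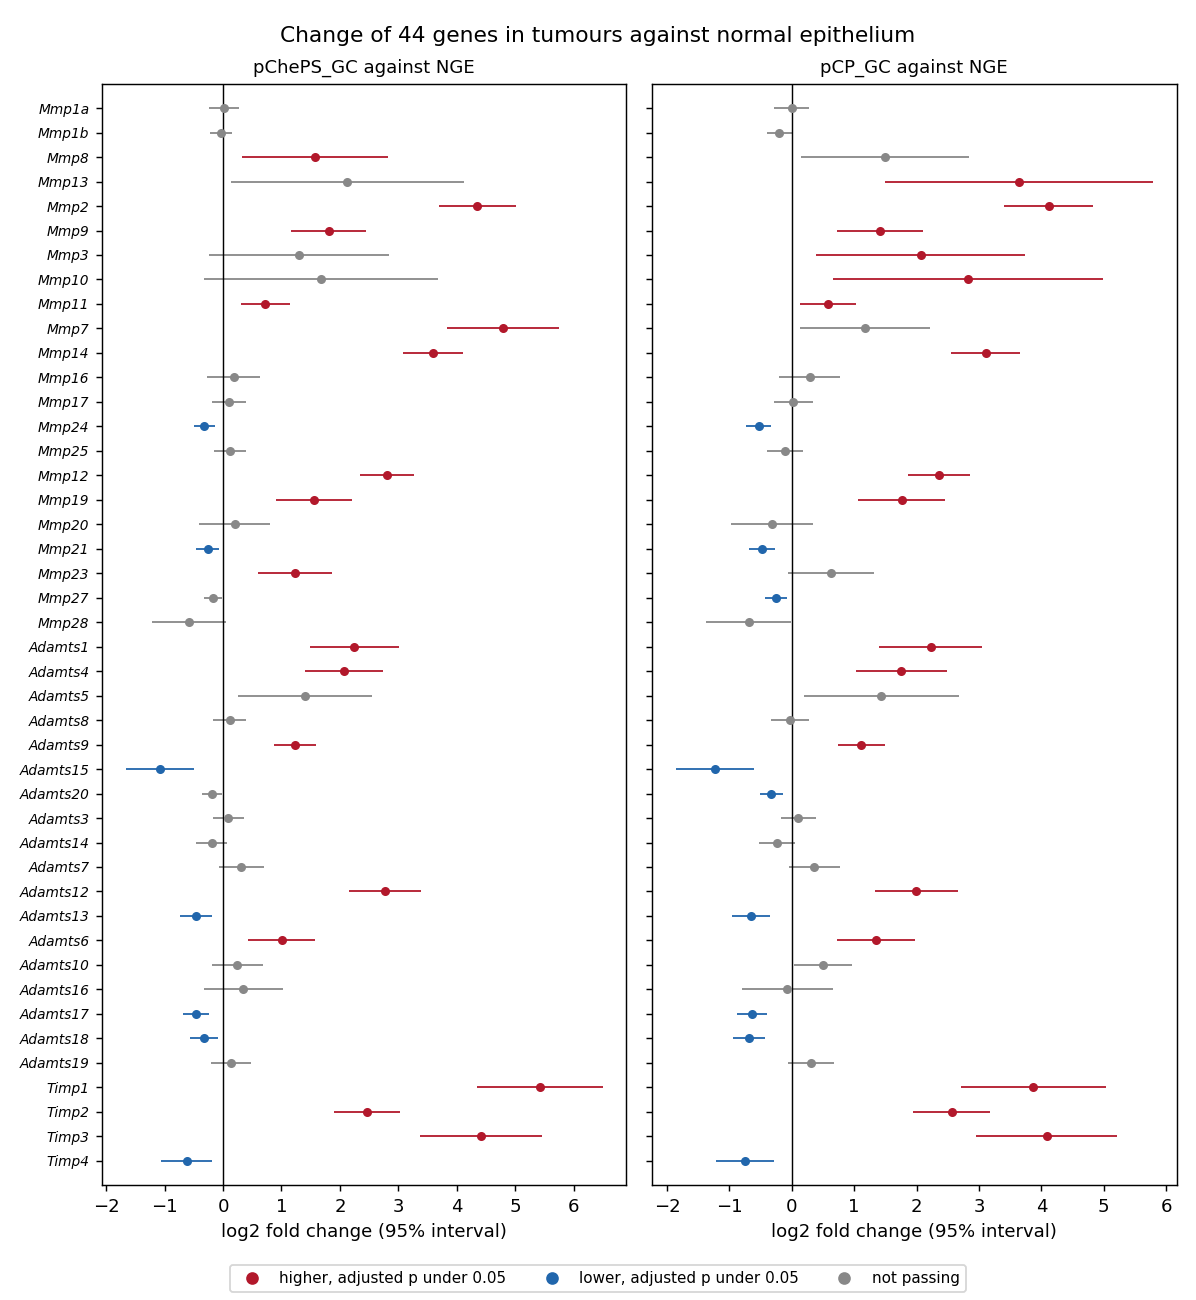
Log2 fold change against NGE with its 95% interval for the 44 genes (rows, ordered by role), in pChePS_GC (left) and pCP_GC (right), coloured by call. The rises reach 5.42 in pChePS_GC and 4.12 in pCP_GC, while the largest falls are -1.08 and -1.23.

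Of the gelatinases, which cut denatured collagen and basement membrane collagen, both rose in each tumour group. Mmp2, largely a product of fibroblasts, read 11.79, 12.15, 12.91 and 12.77 in pChePS_GC, 11.59, 12.95 and 11.98 in pCP_GC, and 8.19, 8.12, 7.95 and 7.97 in NGE. Every tumour array lay far above every NGE array, with pCP_GC replicate 2 the highest of all. Mmp2 rose by 4.35 in pChePS_GC (SE 0.30, limma adjusted p = 3.13e-06), or 20.4-fold, and by 4.12 in pCP_GC (SE 0.32, adjusted p = 9.71e-06), or 17.3-fold. Mmp9, the gelatinase of neutrophils and macrophages, read 9.09, 9.60, 9.95 and 10.19 in pChePS_GC, 8.64, 9.91 and 9.35 in pCP_GC, and 7.97, 7.47, 8.13 and 8.001 in NGE. The groups did not overlap, but the distance was shorter than for Mmp2. Mmp9 rose by 1.81 in pChePS_GC (SE 0.29, adjusted p = 0.000782) and by 1.41 in pCP_GC (SE 0.31, adjusted p = 0.00412).

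Fibroblast markers moved with these genes. All 10 measured fibroblast markers rose in pChePS_GC and 9 of 10 in pCP_GC. Their mean level was 10.58 to 11.44 in pChePS_GC, 10.43 to 11.53 in pCP_GC and 7.65 to 7.85 in NGE, where Lum and Fap were dim. All 9 macrophage markers rose in both tumour groups, with a mean level of 10.13 to 10.84 in pChePS_GC, 9.84 to 11.11 in pCP_GC and 7.35 to 7.55 in NGE, where Adgre1 and Mrc1 were dim. All 7 endothelial markers also rose in both, with a mean level of 9.54 to 10.59 in pChePS_GC, 9.44 to 9.96 in pCP_GC and 7.16 to 7.32 in NGE, where Cdh5, Kdr, Emcn and Tek were dim. All 6 smooth muscle markers rose likewise, at 9.23 to 12.33 in pChePS_GC, 10.82 to 11.97 in pCP_GC and 7.75 to 7.80 in NGE, where Des was dim. Of the 13 gastric epithelial markers 2 rose and 8 fell in pChePS_GC, and 3 did not pass. In pCP_GC 1 of them rose and 3 fell, and 9 did not pass. The part of these cells in the changes of the members was not tested. In bulk tissue, fewer cells of a type and less RNA per cell cannot be told apart, and this holds for every comparison with NGE.

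Of 5 measured membrane-type genes 1 rose and 1 fell in each tumour group. Mmp14, which encodes MT1-MMP, the surface collagenase that activates pro-MMP-2, read 11.95, 11.70, 11.97 and 11.33 in pChePS_GC, 10.75, 11.93 and 11.10 in pCP_GC, and 8.26, 7.95, 8.09 and 8.31 in NGE. The groups of tumour arrays lay well clear of NGE. It rose by 3.58 in pChePS_GC (SE 0.23, adjusted p = 2.13e-06) and by 3.11 in pCP_GC (SE 0.25, adjusted p = 1.13e-05). Mmp24, a membrane-type enzyme best known from nervous tissue, read 7.24 to 7.44 in pChePS_GC, 7.04 to 7.22 in pCP_GC and 7.61 to 7.80 in NGE, and fell by 0.32 in pChePS_GC (adjusted p = 0.0108) and fell by 0.53 in pCP_GC (adjusted p = 0.000938). The levels of Mmp24 lay close to the background gauge, which was also lower in both tumour groups than in NGE. Mmp16, Mmp17 and Mmp25 (leukolysin, known from neutrophils) did not pass in either comparison, with changes between -0.11 and 0.29. Mmp15 was not analysed here.

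Mmp7 encodes matrilysin, a small enzyme without the hemopexin domain that is made by epithelial cells, in the mouse above all by Paneth cells of the intestine. It read 11.60, 11.63, 12.27 and 12.85 in pChePS_GC, 7.55, 9.86 and 7.998 in pCP_GC, and 7.31, 7.22, 7.33 and 7.33 in NGE. All 4 pChePS_GC arrays were high. The pCP_GC arrays also lay above NGE, but replicates 1 and 3 by far less than replicate 2. Mmp7 rose by 4.79 in pChePS_GC (SE 0.44, adjusted p = 1.96e-05), or 27.6-fold, the second largest change of any member there. In pCP_GC the change of Mmp7 was 1.17 (SE 0.47, 95% interval 0.13 to 2.21, adjusted p = 0.0576), which did not pass. It passed when pCP_GC replicate 1 (1.63, adjusted p = 0.0194) or pChePS_GC replicate 4 (adjusted p = 0.0473) was left out, and with quantile normalization (1.21, adjusted p = 0.0489). Without pCP_GC replicate 2 the change was 0.48 (adjusted p = 0.23), and over all alternatives the adjusted p ran between 0.0194 and 0.23.

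The direct comparison of the tumour groups for Mmp7 gave a difference of 3.62 (SE 0.47, 95% interval 2.58 to 4.66, adjusted p = 0.0144), a 12.3-fold higher level in pChePS_GC. Mmp7 was 1 of 44 members higher in pChePS_GC than in pCP_GC, where 0.115% of all genes were called higher. In that comparison 0 of 44 members were called lower by limma, where 0.251% of all genes were, and 6 were higher and 0 lower at an unadjusted p under 0.05, beside 9.72% and 6.81% of all genes. Mmp7 was also the 1 member both called and past 2-fold there (0.0752% of all genes higher and 0.135% lower). Timp1, Mmp13 and Mmp10 differed by more than 2-fold as well (2.92, 2.85 and 2.23-fold) but did not pass. All pChePS_GC arrays lay above all pCP_GC arrays for 7 members and below them for 0 (9.50% and 4.40% of all genes), and for Mmp7 the lowest pChePS_GC array (11.60) was well above the highest pCP_GC array (9.86). The call for Mmp7 was lost without pCP_GC replicate 3 (3.38, adjusted p = 0.0597), with the replicate number as a block (3.49, adjusted p = 0.099) and with only the tumour groups fitted (adjusted p = 0.214, with the same difference of 3.62). Over all alternatives the adjusted p ran between 0.000503 and 0.214. The mean of the gastric epithelial markers was 10.40 to 12.07 in pChePS_GC and 11.67 to 12.86 in pCP_GC. By limma 0 of these 13 markers passed between the tumour groups (1 higher and 5 lower at an unadjusted p under 0.05), and their part in the Mmp7 difference was not tested.

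**Figure D2:**
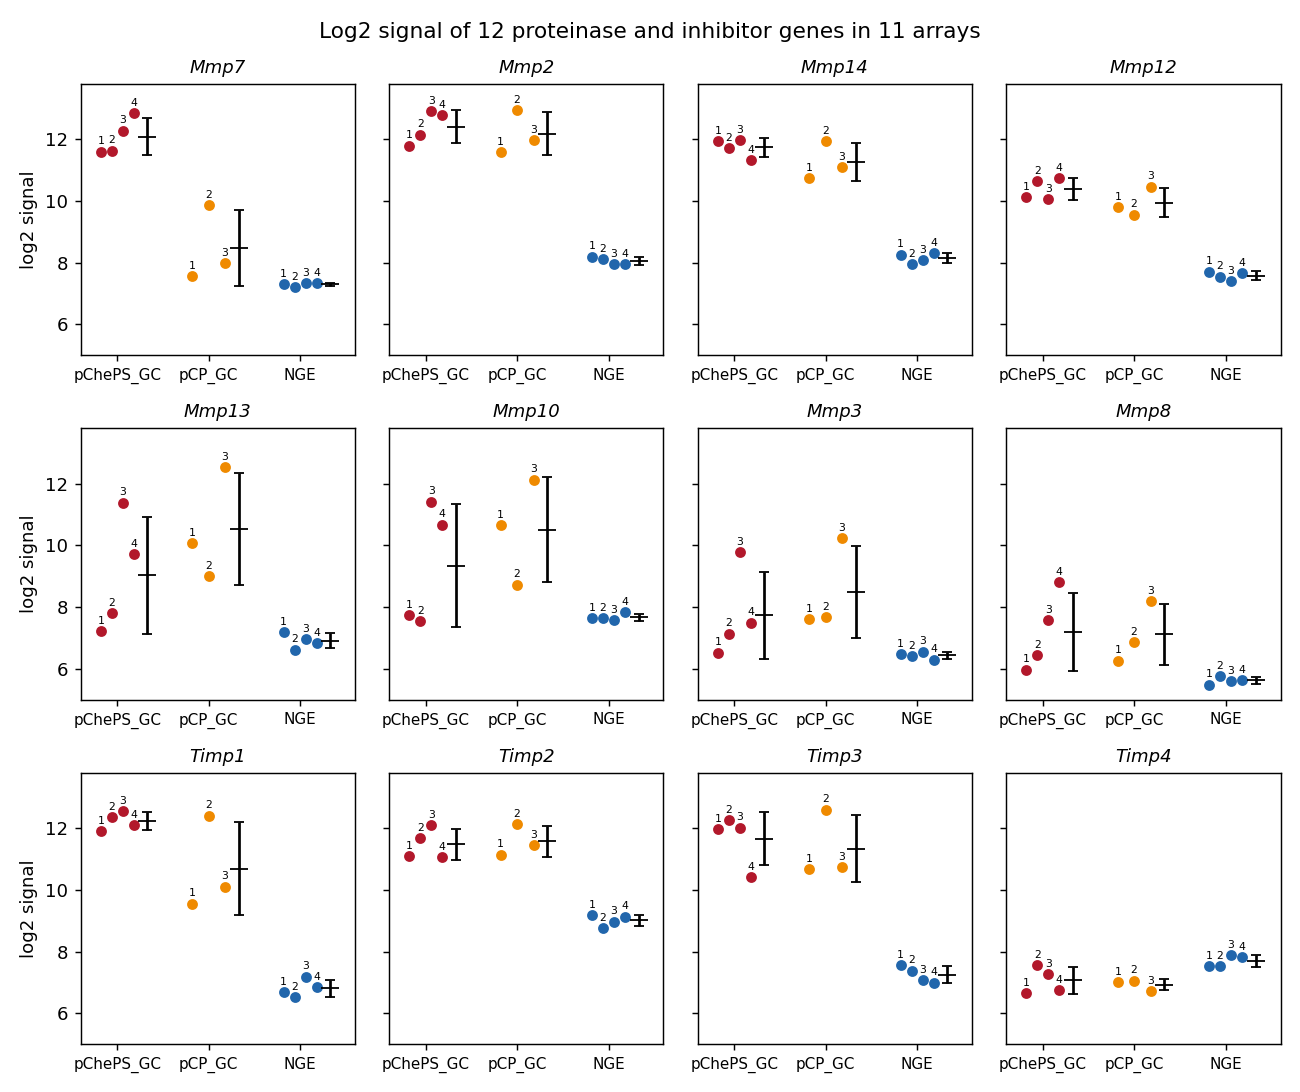
Log2 signal (vertical axis) of 12 genes in each array of pChePS_GC, pCP_GC and NGE, with replicate numbers above the points and the mean ± SD beside each group. Mmp7 is at 11.60 to 12.85 in pChePS_GC, 7.55 to 9.86 in pCP_GC and 7.22 to 7.33 in NGE, while Mmp13, Mmp10 and Mmp3 spread widely within both tumour groups.

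The interstitial collagenase Mmp13 and the stromelysins Mmp10 and Mmp3, neighbours of Mmp7 on chromosome 9, behaved otherwise. Mmp13, which cuts fibrillar collagen, read 7.23, 7.81, 11.39 and 9.71 in pChePS_GC, 10.07, 9.02 and 12.54 in pCP_GC, and 7.20, 6.62, 6.97 and 6.83 in NGE. Replicate 1 of pChePS_GC stood at the level of NGE and replicate 3 more than 4 above it. All 3 pCP_GC arrays were above NGE. Mmp13 rose by 3.64 in pCP_GC (SE 0.97, adjusted p = 0.01). In pChePS_GC its change was 2.13 (SE 0.90, 95% interval 0.14 to 4.11, adjusted p = 0.0772). That value of Mmp13 passed without pChePS_GC replicate 1 (2.73, adjusted p = 0.0348) or pCP_GC replicate 3 (adjusted p = 0.0499), under array weighting (1.97, adjusted p = 0.0435) and with the replicate block (adjusted p = 0.0349). Without pChePS_GC replicate 3 it was 1.34 (adjusted p = 0.18), and over all alternatives the adjusted p ran between 0.0348 and 0.18. NGE was dim for Mmp13.

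Mmp10, stromelysin-2, read 7.75, 7.54, 11.42 and 10.68 in pChePS_GC, 10.66, 8.73 and 12.13 in pCP_GC, and 7.64, 7.65, 7.58 and 7.84 in NGE. Replicates 1 and 2 of pChePS_GC overlapped NGE, while replicates 3 and 4 did not. Mmp10 rose by 2.83 in pCP_GC (SE 0.98, adjusted p = 0.0322) and differed by 1.67 in pChePS_GC (SE 0.91, adjusted p = 0.153). Mmp3, stromelysin-1, which also activates other proenzymes, read 6.53, 7.14, 9.78 and 7.50 in pChePS_GC, 7.61, 7.67 and 10.23 in pCP_GC, and 6.49, 6.41, 6.56 and 6.30 in NGE. One array in each tumour group, replicate 3 of both, was far above the others. Mmp3 rose by 2.06 in pCP_GC (SE 0.76, adjusted p = 0.0404) and differed by 1.30 in pChePS_GC (SE 0.70, adjusted p = 0.151), and NGE was dim.

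These values rest on few arrays. Without pChePS_GC replicate 3 the change in pChePS_GC was 0.98 for Mmp10 (adjusted p = 0.36) and 0.62 for Mmp3 (adjusted p = 0.373). For Mmp10 in pCP_GC the call was lost without pCP_GC replicate 3 (2.01, adjusted p = 0.132) or replicate 1 (adjusted p = 0.0781) and without any single NGE array (adjusted p = 0.0571 to 0.0656) (all alternatives 0.00154 to 0.132). For Mmp3 in pCP_GC it was lost without pCP_GC replicate 3 (1.20, adjusted p = 0.174) and without any single NGE array (adjusted p = 0.0713 to 0.0786) (all alternatives 0.00801 to 0.174). Mmp11, stromelysin-3, an enzyme of tumour fibroblasts, read 8.34 to 8.88 in pChePS_GC, 8.17 to 8.96 in pCP_GC and 7.75 to 8.12 in NGE. It rose by 0.72 in pChePS_GC (adjusted p = 0.0125) and by 0.58 in pCP_GC (adjusted p = 0.0354). The pCP_GC call of Mmp11 was lost without pCP_GC replicate 2 (0.33, adjusted p = 0.152), without NGE replicates 1, 2 or 4 (adjusted p = 0.0659, 0.0765 and 0.0769), with arrays centred on their medians (0.36, adjusted p = 0.119), with quantile normalization (0.42, adjusted p = 0.0972) and with the replicate block (adjusted p = 0.1) (all alternatives 0.0175 to 0.152).

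**Figure D3:**
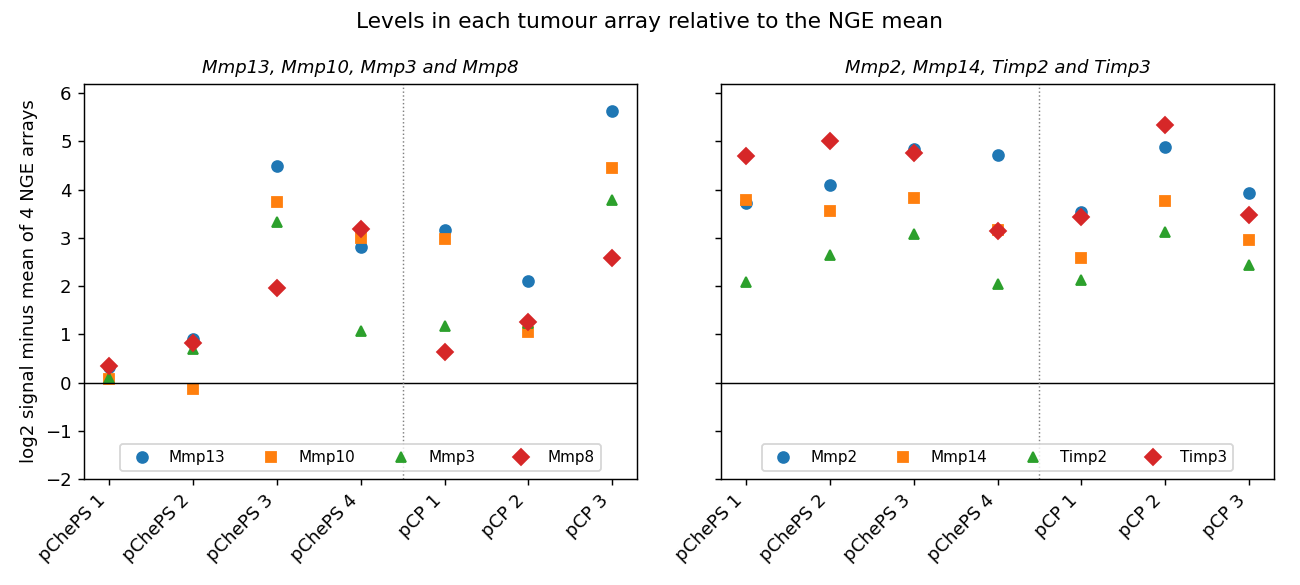
Log2 signal minus the mean of the 4 NGE arrays (vertical axis) in each of the 4 pChePS_GC and 3 pCP_GC arrays, for Mmp13, Mmp10, Mmp3 and Mmp8 (left) and for Mmp2, Mmp14, Timp2 and Timp3 (right). The genes on the right are at least 2 above the NGE mean in every tumour array, while those on the left are near the NGE level in pChePS_GC replicate 1 and more than 3 above the NGE mean in at least 1 other tumour array.

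Mmp8, the collagenase of neutrophil granules, read 5.97, 6.44, 7.59 and 8.81 in pChePS_GC, 6.27, 6.88 and 8.21 in pCP_GC, and 5.49, 5.78, 5.61 and 5.64 in NGE. No tumour array overlapped NGE, and NGE was dim. It rose by 1.58 in pChePS_GC (SE 0.57, adjusted p = 0.0447). In pCP_GC it was higher by 1.49 (SE 0.61, adjusted p = 0.0614), which did not pass. The Mmp8 call in pChePS_GC was lost without any single NGE array (adjusted p = 0.0678 to 0.0933), without pChePS_GC replicates 3 or 4 (1.45 and 1.04, adjusted p = 0.0897 and 0.088), or with pCP_GC replicate 2 left out (adjusted p = 0.0523) (all alternatives 0.0167 to 0.0933). Without pCP_GC replicate 3 the change of Mmp8 in pCP_GC was 0.94 (adjusted p = 0.238). In pCP_GC, Mmp8 passed without pCP_GC replicate 1 (1.91, adjusted p = 0.0407), without pChePS_GC replicates 1 or 4 (adjusted p = 0.0385 and 0.0195) with only pCP_GC and NGE fitted (adjusted p = 0.0108), with quantile normalization (adjusted p = 0.038), under array weighting (1.31, adjusted p = 0.026), and with the replicate block (adjusted p = 0.021) (all alternatives 0.0108 to 0.238). Of 9 neutrophil markers 5 rose and 2 fell in each tumour group. Their mean was 8.11 to 8.55 in pChePS_GC, 7.36 to 8.28 in pCP_GC and 6.87 to 7.00 in NGE, where S100a8, Csf3r, Cxcr2, Ly6g and Ngp were dim, and their part was not tested.

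The collagenases Mmp1a and Mmp1b, mouse relatives of human MMP1, gave a contrast within the same row of genes. Mmp1a read 5.13 to 5.59 in pChePS_GC, 5.12 to 5.54 in pCP_GC and 5.29 to 5.42 in NGE. Mmp1b read 4.69 to 4.84, 4.49 to 4.66 and 4.66 to 4.93 in the same groups. Both were dim in all groups and did not pass in either comparison, although both promoters hold an AP-1 and a TATA box match. Probe sets of close relatives can share signal, which was not tested.

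Mmp12 encodes macrophage elastase. It read 10.11, 10.64, 10.05 and 10.75 in pChePS_GC, 9.80, 9.56 and 10.46 in pCP_GC, and 7.71, 7.55, 7.40 and 7.67 in NGE. Its tumour arrays stayed within 1.2 of each other, unlike those of its neighbour Mmp13. Mmp12 rose by 2.81 in pChePS_GC (SE 0.21, adjusted p = 5.08e-06) and by 2.36 in pCP_GC (SE 0.23, adjusted p = 3.33e-05). In the row of 10 neighbours, 3 rose in pChePS_GC, and 4 rose and 1 fell in pCP_GC. Over all genes 18.7% rose and 23.4% fell in pChePS_GC, and 20.0% rose and 31.8% fell in pCP_GC.

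**Figure D4:**
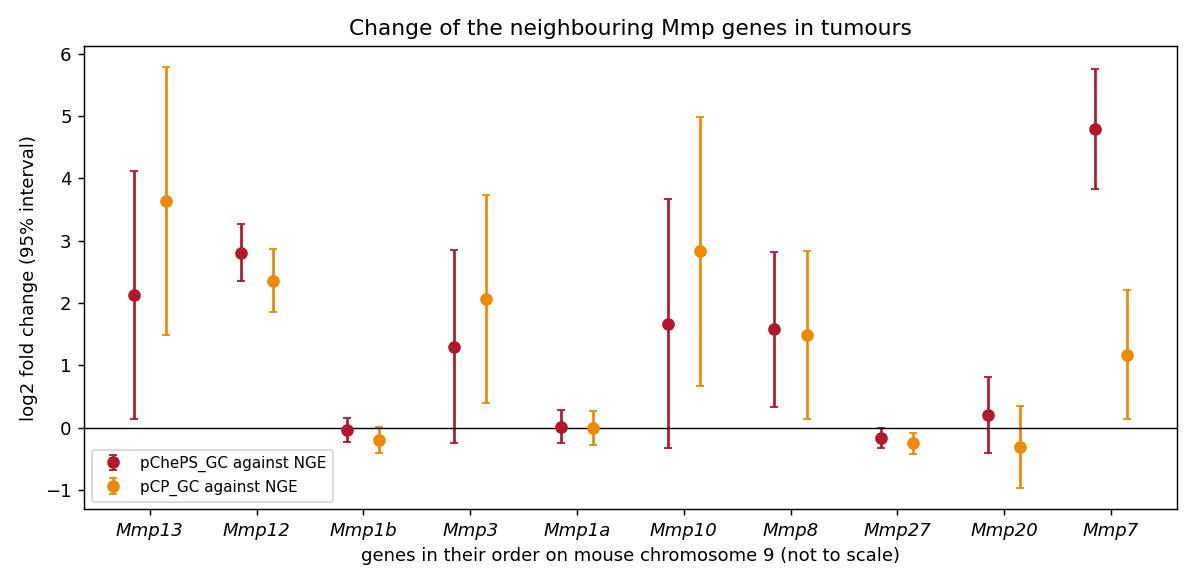
Log2 fold change against NGE with its 95% interval (vertical axis) for the 10 neighbouring Mmp genes in their order on chromosome 9 (horizontal axis, not to scale), in pChePS_GC and pCP_GC. Mmp7 at the end of the row is at 4.79 in pChePS_GC and 1.17 in pCP_GC, Mmp12 is at 2.81 and 2.36, and Mmp1a and Mmp1b lie between -0.20 and 0.02.

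Of the other Mmp genes, Mmp19, a basement membrane proteinase of stroma and vessels, read 8.18 to 9.58 in pChePS_GC, 8.56 to 9.70 in pCP_GC and 7.10 to 7.47 in NGE. It rose by 1.56 in pChePS_GC (adjusted p = 0.00208) and by 1.76 in pCP_GC (adjusted p = 0.00138). Mmp23 read 9.31 to 10.26 in pChePS_GC, 8.55 to 9.68 in pCP_GC and 8.19 to 9.04 in NGE. It rose by 1.23 in pChePS_GC (adjusted p = 0.00694). In pCP_GC it was higher by 0.63, which did not pass (adjusted p = 0.109), and replicate 3 overlapped NGE. Without that array the pCP_GC change of Mmp23 was 0.98 (adjusted p = 0.0185, all alternatives 0.0185 to 0.385). Mmp28, epilysin, an enzyme of epithelia, read 8.39 to 9.84 in pChePS_GC, 8.77 to 9.42 in pCP_GC and 9.45 to 10.23 in NGE, and did not pass (changes of -0.58 and -0.69, adjusted p = 0.121 and 0.0809).

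Small falls were called among dim members. The background gauge was also lower in tumours, at 6.99 in pChePS_GC and 6.86 in pCP_GC against 7.24 in NGE. Mmp21 was dim in all groups and fell by 0.26 in pChePS_GC (adjusted p = 0.0336) and fell by 0.47 in pCP_GC (adjusted p = 0.00234). The first of these was lost for Mmp21 without NGE replicates 1, 3 or 4 (adjusted p = 0.0603, 0.0887 and 0.0823) and without pChePS_GC replicates 1 or 2 (adjusted p = 0.071 and 0.0914), and with quantile normalization (-0.14, adjusted p = 0.113) (all alternatives 0.00359 to 0.113). Mmp27 and Adamts20, also dim throughout, fell by 0.25 (adjusted p = 0.0187) and fell by 0.33 (adjusted p = 0.00745) in pCP_GC. With quantile normalization the Mmp27 change was -0.02 (adjusted p = 0.895, all alternatives 0.00171 to 0.895) and the Adamts20 change -0.11 (adjusted p = 0.18, all alternatives 0.000526 to 0.18). The Mmp27 call was also lost without pCP_GC replicate 2 (adjusted p = 0.0663). Mmp20, enamelysin of tooth enamel, was dim in all groups and did not pass, with 8.06 in pChePS_GC replicate 4 against 6.60 to 6.65 in the other pChePS_GC arrays.

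Of 7 ADAMTS proteoglycanases, which cut versican and aggrecan, 3 rose and 1 fell in pChePS_GC, and 3 rose and 2 fell in pCP_GC. Adamts1 read 9.54, 9.32, 10.82 and 8.995 in pChePS_GC, 9.06, 9.80 and 10.11 in pCP_GC, and 7.49, 7.30, 7.49 and 7.42 in NGE. The groups did not overlap. Adamts1 rose by 2.25 in pChePS_GC (SE 0.35, adjusted p = 0.000621) and by 2.23 in pCP_GC (SE 0.37, adjusted p = 0.000999). Adamts4, aggrecanase-1, read 9.31, 9.32, 10.60 and 9.44 in pChePS_GC, 8.69, 9.86 and 9.52 in pCP_GC, and 7.73, 7.47, 7.48 and 7.72 in NGE. Replicate 3 of pChePS_GC was the highest array for both genes. Adamts4 rose by 2.07 in pChePS_GC (SE 0.31, adjusted p = 0.000465) and by 1.76 in pCP_GC (SE 0.33, adjusted p = 0.00175).

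Adamts9 rose by 1.23 in pChePS_GC (adjusted p = 0.000216) and by 1.12 in pCP_GC (adjusted p = 0.000665), with levels of 9.82 to 10.20 in pChePS_GC, 9.67 to 10.43 in pCP_GC and 8.69 to 9.002 in NGE. Its 6 probe sets all lay higher in both tumour groups, by 0.20 to 2.19 in pChePS_GC and by 0.06 to 2.11 in pCP_GC. Adamts5, aggrecanase-2, read 8.29, 8.46, 9.19 and 7.25 in pChePS_GC, 7.55, 9.90 and 7.55 in pCP_GC, and 7.03, 6.80, 7.16 and 6.61 in NGE. Its groups did not overlap, but the tumour arrays spread widely and it did not pass (adjusted p = 0.0511 in pChePS_GC and 0.0527 in pCP_GC). Adamts15, a versicanase, was the member with the largest fall. It read 9.05, 8.98, 8.31 and 8.12 in pChePS_GC, 8.69, 8.94 and 7.77 in pCP_GC, and 9.70, 9.67, 9.63 and 9.77 in NGE. All tumour arrays were below NGE, and Adamts15 fell by 1.08 in pChePS_GC (SE 0.26, adjusted p = 0.00881), and in pCP_GC it fell by 1.23 (SE 0.28, adjusted p = 0.00507).

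Adamts12, which cuts cartilage oligomeric matrix protein, showed the largest rise among the Adamts genes in pChePS_GC. It read 10.03, 9.89, 10.34 and 10.37 in pChePS_GC, 8.57, 10.24 and 9.32 in pCP_GC, and 7.51, 7.25, 7.37 and 7.40 in NGE. The pChePS_GC arrays lay close together, and replicate 2 of pCP_GC lay among them. Adamts12 rose by 2.78 in pChePS_GC (SE 0.28, adjusted p = 3.62e-05) and by 2.00 in pCP_GC (SE 0.30, adjusted p = 0.000549). Adamts7, which cuts the same substrate, did not pass (changes of 0.31 and 0.36). Adamts6 rose by 1.00 in pChePS_GC (adjusted p = 0.012) and by 1.35 in pCP_GC (adjusted p = 0.00303), with NGE dim. Both measured procollagen N-proteinases, Adamts3 and Adamts14, did not pass, with changes between -0.24 and 0.10. Adamts2 was not analysed here.

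Adamts13, the proteinase that trims von Willebrand factor, fell by 0.46 in pChePS_GC (adjusted p = 0.0142) and fell by 0.65 in pCP_GC (adjusted p = 0.00294), with levels of 7.35 to 7.75, 7.13 to 7.49 and 7.75 to 8.12 in pChePS_GC, pCP_GC and NGE. Adamts17 fell by 0.46 and by 0.64 (adjusted p = 0.00536 in pChePS_GC and 0.00118 in pCP_GC), and 4 of its 5 probe sets lay lower in pChePS_GC and all 5 in pCP_GC. Adamts18 fell by 0.32 in pChePS_GC (adjusted p = 0.0368) and fell by 0.69 in pCP_GC (adjusted p = 0.00107). The first of these was lost for Adamts18 without NGE replicates 1, 3 or 4 (adjusted p = 0.0784, 0.103 and 0.0822), without pChePS_GC replicates 1 or 2 (adjusted p = 0.0804 and 0.0972), or with pCP_GC replicate 1 left out (adjusted p = 0.0503), or with only pChePS_GC and NGE fitted (adjusted p = 0.0509) (all alternatives 0.00467 to 0.103). Adamts18 also lay close to the background gauge, which was lower in both tumour groups than in NGE. Adamts10, Adamts16 and Adamts19 did not pass.

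Of the 4 inhibitors 3 rose and 1 fell in each tumour group. Timp1, an inducible inhibitor on the X chromosome, read 11.90, 12.36, 12.56 and 12.11 in pChePS_GC, 9.55, 12.41 and 10.11 in pCP_GC, and 6.70, 6.54, 7.19 and 6.85 in NGE, which was dim. The pChePS_GC arrays were uniformly high. In pCP_GC, replicate 2 matched them and the other arrays lay below every pChePS_GC array. Timp1 rose by 5.42 in pChePS_GC (SE 0.49, adjusted p = 1.8e-05), or 42.7-fold, the largest change of any member, and by 3.87 in pCP_GC (SE 0.53, adjusted p = 0.000298), or 14.6-fold. The Xist levels given above differ between the same groups, and a part of sex in this X-linked gene cannot be told apart from that of the tumours. The same limit holds for every other member compared with NGE.

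Timp3, the inhibitor that binds to matrix, read 11.96, 12.27, 12.02 and 10.40 in pChePS_GC, 10.68, 12.60 and 10.74 in pCP_GC, and 7.57, 7.38, 7.07 and 6.99 in NGE. Replicate 4 of pChePS_GC stood below the other pChePS_GC arrays but far above NGE. Timp3 rose by 4.41 in pChePS_GC (SE 0.47, adjusted p = 5.75e-05) and by 4.09 in pCP_GC (SE 0.51, adjusted p = 0.000182). Timp2, the partner of MMP-14 in the activation of MMP-2, read 11.10, 11.67, 12.10 and 11.05 in pChePS_GC, 11.15, 12.13 and 11.45 in pCP_GC, and 9.18, 8.77, 8.98 and 9.14 in NGE. The tumour groups covered the same range. Timp2 rose by 2.46 in pChePS_GC (SE 0.26, adjusted p = 4.87e-05) and by 2.56 in pCP_GC (SE 0.28, adjusted p = 7.19e-05).

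Timp4, best known from heart and adipose tissue, was lower in tumours. It read 6.66, 7.57, 7.28 and 6.76 in pChePS_GC, 7.02, 7.07 and 6.72 in pCP_GC, and 7.52, 7.53, 7.89 and 7.82 in NGE. Replicate 2 of pChePS_GC overlapped NGE, and the pCP_GC arrays did not. Timp4 fell by 0.62 in pChePS_GC (SE 0.20, adjusted p = 0.0269), and in pCP_GC it fell by 0.76 (SE 0.21, adjusted p = 0.0123). Its tumour means (7.07 in pChePS_GC and 6.93 in pCP_GC) lay close to the background gauge (6.99 and 6.86). That gauge was also lower in both tumour groups than in NGE (7.24). The pChePS_GC call of Timp4 was lost without NGE replicates 3 or 4 (adjusted p = 0.0747 and 0.0696) and without pChePS_GC replicates 1 or 4 (adjusted p = 0.0645 and 0.0631) (all alternatives 0.00394 to 0.0747).

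Between the tumour groups, which differ in the floxed Cdh1 and Smad4 alleles, 43 of the 44 members did not pass. The intervals of 29 of these lay within 1 on the log2 scale on either side of 0, and the widest were those of Mmp13, Mmp10 and Mmp3. The difference for Mmp13, pChePS_GC minus pCP_GC, was -1.51 (95% interval -3.66 to 0.64, adjusted p = 0.444). For Mmp10 it was -1.16 (-3.32 to 1.00, adjusted p = 0.565) and for Mmp3 -0.76 (-2.43 to 0.90, adjusted p = 0.624). Without pCP_GC replicate 3 the difference was -0.51 for Mmp13, -0.35 for Mmp10 and 0.10 for Mmp3. With each array left out in turn it reached -2.29 for Mmp13 (without pChePS_GC replicate 3), -2.05 for Mmp10 (without pCP_GC replicate 2) and -1.44 for Mmp3 (without pChePS_GC replicate 3). The arrays of both groups overlapped for all 3 genes, and each interval holds differences in either direction.

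Timp1 was higher in pChePS_GC by 1.54 (95% interval 0.38 to 2.71, adjusted p = 0.202), which did not pass, and replicate 2 of pCP_GC lay within the pChePS_GC range. Without that array the Timp1 difference was 2.40 (adjusted p = 0.00236), and with array weights it was 2.19 (adjusted p = 0.0441) (all alternatives 0.00236 to 0.453). Adamts12 differed by 0.78 (0.12 to 1.45, adjusted p = 0.242), and by 1.21 without pCP_GC replicate 2 (adjusted p = 0.0285, all alternatives 0.0285 to 0.523). The differences were 0.32 for Timp3 (-0.81 to 1.45), -0.10 for Timp2 (-0.71 to 0.52) and 0.13 for Timp4 (-0.33 to 0.60), each with an adjusted p of at least 0.774. Replicate 2 of pCP_GC also had the highest mean of the macrophage (11.11) and fibroblast (11.53) markers of all tumour arrays. The same array had the highest mean of the gastric epithelial (12.86) and mast cell (9.32) markers and the lowest of the neutrophil markers (7.36). Its median over all genes (8.44) was the highest as well. The part of these cells was not tested.

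**Figure D5:**
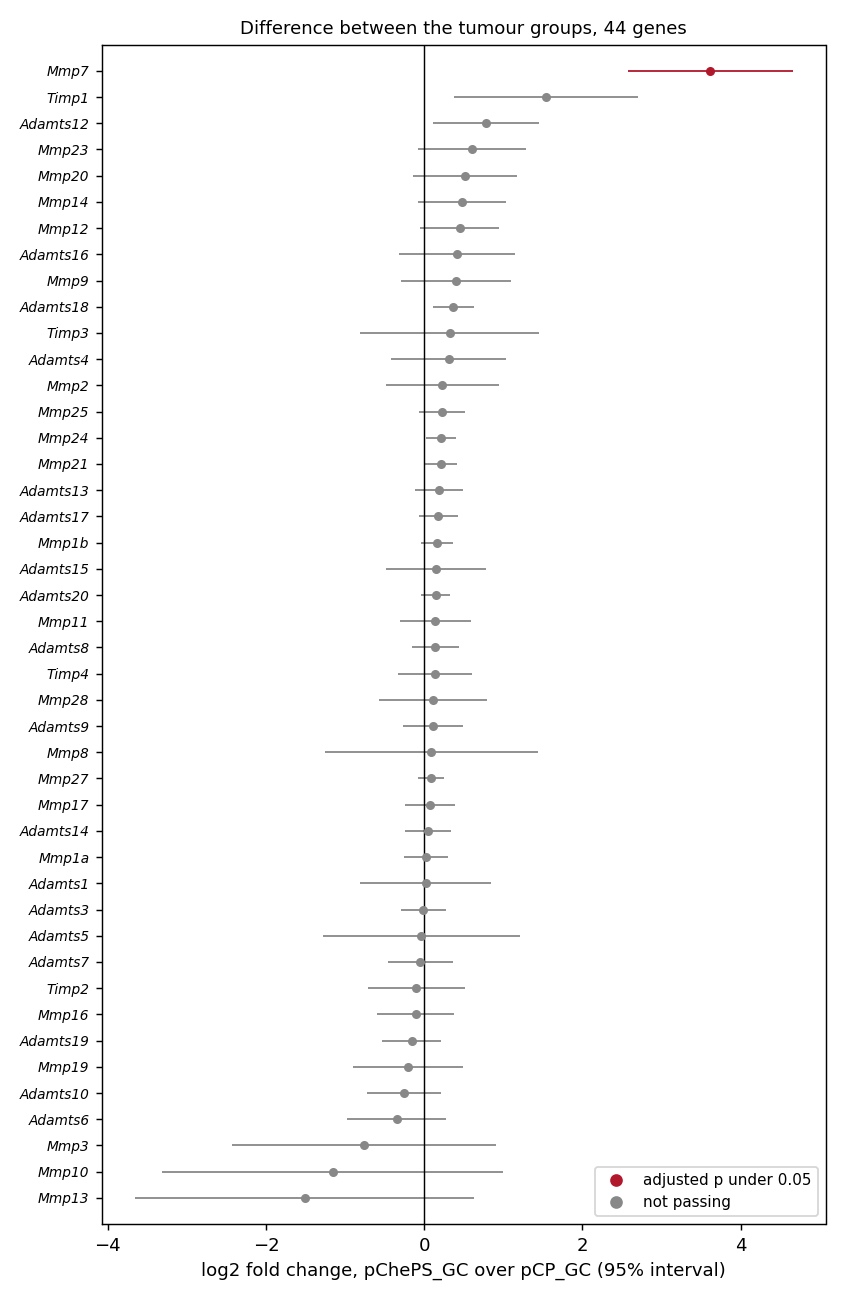
Difference of pChePS_GC minus pCP_GC on the log2 scale with its 95% interval (horizontal axis) for the 44 genes (rows, ordered by the difference). Mmp7 at 3.62 is the single gene that passed, Timp1 follows at 1.54, and the wide intervals at the bottom belong to Mmp3, Mmp10 and Mmp13.

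Other genes that activate, hold back or supply substrates to these enzymes were counted by list. Beside the count of every list stand the shares over all genes. These were 18.7% higher and 23.4% lower in pChePS_GC, and 20.0% higher and 31.8% lower in pCP_GC. Of 6 measured plasminogen activation genes 3 rose and 2 fell in each tumour group. Plau, the urokinase activator whose product plasmin can activate proenzymes, rose by 2.15 in pChePS_GC (adjusted p = 1.95e-05) and by 2.52 in pCP_GC (adjusted p = 1.44e-05). Its receptor Plaur rose by 2.13 (adjusted p = 0.000485) and 1.71 (adjusted p = 0.00238) in the same order. The tissue activator Plat read 12.22, 11.05, 11.80 and 10.96 in pChePS_GC, 9.73, 10.17 and 10.05 in pCP_GC, and 7.43, 7.86, 7.82 and 8.26 in NGE. All pChePS_GC arrays were above all pCP_GC arrays, and the difference for Plat was 1.52 (adjusted p = 0.0702), which did not pass. Plat rose by 3.66 in pChePS_GC (adjusted p = 5.11e-06) and by 2.14 in pCP_GC (adjusted p = 0.000332) against NGE.

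Of 9 other inhibitors and modulators 7 rose in pChePS_GC and 6 in pCP_GC, and 0 fell in either. At an unadjusted p under 0.05 the counts of falls were also 0. Lcn2, whose human product binds and stabilises MMP-9, rose by 4.98 in pChePS_GC (adjusted p = 3.9e-06) and by 3.24 in pCP_GC (adjusted p = 0.000133). Thbs1, thrombospondin-1, rose by 4.41 (adjusted p = 4.97e-06) and 3.89 (adjusted p = 2.33e-05), and Sparc, a collagen-binding matricellular protein, by 4.36 (adjusted p = 4.09e-07) and 4.18 (adjusted p = 1.36e-06). Of 7 proprotein convertases and other activators 2 rose and 1 fell in pChePS_GC, and 2 fell in pCP_GC, where the other 5 did not pass. Furin, the convertase that activates MMP-14 inside the cell, read 11.15 to 11.81 in pChePS_GC, 11.45 to 11.63 in pCP_GC and 11.99 to 12.65 in NGE. Tumours of pChePS_GC showed a change of -0.71 (adjusted p = 0.01), and those of pCP_GC a change of -0.75 (adjusted p = 0.00805).

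Of 12 ADAM proteinases, relatives that shed membrane proteins, 3 rose and 1 fell in each tumour group. Adam8 rose by 2.05 in pChePS_GC (adjusted p = 0.00196) and by 1.73 in pCP_GC (adjusted p = 0.00575), and Adam19 by 1.83 (adjusted p = 5.6e-05) and 1.79 (adjusted p = 0.000122). The sheddases Adam10 and Adam17 did not pass, with changes between -0.10 and 0.30. Of 7 ADAMTS-like genes 2 rose and 1 fell in pChePS_GC, and 1 rose and 2 fell in pCP_GC. Adamtsl4 rose by 1.29 (adjusted p = 0.000471) and 1.60 (adjusted p = 0.000216), and Thsd4 fell by 1.19 (adjusted p = 0.00048) and fell by 0.87 (adjusted p = 0.00382). Of 5 astacins and meprins 1 rose in pChePS_GC, where the other 4 did not pass, and 1 rose and 1 fell in pCP_GC. Bmp1, the procollagen C-proteinase, rose by 2.59 (adjusted p = 3.2e-05) and 2.11 (adjusted p = 0.000237), and Tll2 fell by 0.42 in pCP_GC (adjusted p = 0.00994).

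Of 12 measured AP-1 and Ets factors 4 rose and 1 fell in pChePS_GC, and 4 rose and 2 fell in pCP_GC. The AP-1 subunits Fos, Fosl1 and Junb did not pass in either comparison (changes between -0.40 and 0.40). Fos varied between tumour arrays, at 9.66, 9.69, 10.81 and 10.84 in pChePS_GC, 11.04, 9.76 and 11.21 in pCP_GC, and 10.63 to 10.70 in NGE. Values of Fosb, Fosl2 and Jund, of the same list, are not given here. Jun read 10.26, 10.58, 11.54 and 10.85 in pChePS_GC, 11.52, 11.35 and 11.66 in pCP_GC, and 11.70, 11.84, 11.95 and 11.95 in NGE, and fell by 1.05 in pChePS_GC (adjusted p = 0.00398). The Ets factors Ets1 and Etv5 rose by 1.60 (adjusted p = 5.77e-05) and 1.11 (adjusted p = 0.00362) in pChePS_GC, and by 1.32 (adjusted p = 0.00036) and 1.47 (adjusted p = 0.000996) in pCP_GC. Etv1 read 8.19, 8.28, 8.56 and 7.48 in pChePS_GC, 9.73, 9.42 and 9.30 in pCP_GC, and 7.63, 7.31, 7.46 and 7.46 in NGE. It rose by 2.02 in pCP_GC (adjusted p = 6.22e-05) and was lower in pChePS_GC than in pCP_GC by the direct test, with a difference of -1.36 (adjusted p = 0.032). That call of Etv1 was lost without any single NGE array (adjusted p = 0.0553 to 0.0693), without pChePS_GC replicate 1 (adjusted p = 0.0532), or with pCP_GC replicates 1 or 3 left out (adjusted p = 0.113 and 0.0759), with only the tumour groups fitted (adjusted p = 0.239) and with the replicate block (-1.25, adjusted p = 0.121) (all alternatives 0.0106 to 0.239).

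Of 12 measured matrix substrates 8 rose and 1 fell in pChePS_GC, and 7 rose and 1 fell in pCP_GC. Fn1, fibronectin, rose by 4.69 in pChePS_GC (adjusted p = 6.17e-06) and by 4.39 in pCP_GC (adjusted p = 2.06e-05). Vcan encodes versican, a substrate of Adamts1, Adamts4 and Adamts9. It read 8.52, 9.92, 11.41 and 9.91 in pChePS_GC, 10.50, 11.73 and 10.79 in pCP_GC, and 6.56, 6.93, 6.49 and 6.75 in NGE, which was dim, and rose by 3.26 in pChePS_GC (adjusted p = 0.000529) and by 4.33 in pCP_GC (adjusted p = 0.000161). Col1a1, the main substrate of the collagenases, rose by 3.36 (adjusted p = 8.27e-06) and 3.07 (adjusted p = 3.19e-05). All lists were chosen with earlier results of these arrays known, so their counts are not independent evidence of a direction.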

How the data were processed

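Per the labels, total RNA of 11 samples was biotin-labelled for Affymetrix arrays. Each probe set has 1 deposited log2 signal on each array, normalized by the authors. That the scale is log2 was inferred from the range of the values. The submitters' processing notes name Affymetrix Expression Console. Neither its version nor its algorithm or genome build appears in those notes as used here, and its background correction sets the level of dim probe sets.

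Of 35556 probe sets the platform annotation gave 1 symbol for 21789, several for 1621 and none for 12146, and 21698 of the first matched a RefSeq gene with 0 symbols changed. Each of 19938 genes was represented by its brightest probe set, by the mean of 11 arrays, and 3 members had several. No dim gene was left out, so all 44 members entered every test.

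A model of 3 group means used every array (limma 3.58.1, lmFit and eBayes, R 4.3.3). Two-sided p-values were adjusted by Benjamini-Hochberg across the 19938 genes, with a threshold of 0.05. The fit was tested on simulated data. Intervals are 95% intervals of that fit. Named genes are members that passed, the Timp genes, the members that differed most between tumours to a total of 5 beside the Timp genes, and up to 3 passing genes per pathway list. Other members are given by values. Fos, Fosl1, Junb, Adam10 and Adam17, and the pChePS_GC value of Vcan, were named after their values were seen. The members and lists were chosen with earlier results of these data known. The alternatives changed the variance prior, groups fitted, normalization, array weights, replicate block, probe set summary, dim filters, thresholds and arrays, each left out in turn. Promoters are RefSeq (GRCm38.p6).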

Additional observations from a re-analysis of the deposited data

Results flagged for a closer look

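A single array lay far from the other 3 of its group for 11 of the 88 pairs of member and 4-array group, where about 1 in 20 is flagged by chance. In pChePS_GC, replicate 3 was the highest array for Adamts4 (10.60 against 9.31 to 9.44), Adamts6 (7.91 against 7.22 to 7.26), Adamts7 (9.41 against 8.55 to 8.69) and Mmp16 (7.15 against 6.71 to 6.77). Replicate 4 of pChePS_GC was the highest for Adamts16 (8.76 against 7.16 to 7.38) and Mmp20 (8.06 against 6.60 to 6.65), and the lowest for Timp3 (10.40 against 11.96 to 12.27). In NGE, replicate 2 was the lowest for Adamts14 (7.73 against 7.99 to 8.03), Adamts16 (7.13 against 7.37 to 7.41), Adamts3 (8.41 against 8.56 to 8.57) and Mmp7 (7.22 against 7.31 to 7.33), and its array median over all genes (8.10) was also the lowest of NGE. Among pathway genes, Pcsk5 stood at 7.93 in NGE replicate 2 against 8.41 to 8.51, and Col1a2 at 8.71 in NGE replicate 1 against 8.33 to 8.39.

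The change against NGE differed between the tumour groups, by the direct test, for Mmp7 (3.62, pChePS_GC minus pCP_GC, limma adjusted p = 0.0144) and for Etv1 (-1.36, adjusted p = 0.032).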

How the results depend on the processing

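For named genes, 2423 values were recomputed over 112 combinations of gene and comparison. Direction and side of the threshold held in 2311, 83 calls were lost, 22 were gained and 7 values turned sign, and 83 of the 112 combinations never changed. The sign turned only for uncalled differences between the tumour groups, namely Mmp3 without pCP_GC replicate 3 (0.10), Timp2 with array weights (0.15) and without pChePS_GC replicate 1 (0.03), pChePS_GC replicate 4 (0.04) or pCP_GC replicate 2 (0.18), Timp3 without pCP_GC replicate 1 (-0.0065) and Timp4 without pChePS_GC replicate 2 (-0.035). With 1 array left out these differences ran from -1.44 to 0.10, -0.31 to 0.18, -0.0065 to 0.95 and -0.035 to 0.27 for Mmp3, Timp2, Timp3 and Timp4.

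With 1 array left out, the members called higher numbered 16 to 19 in pChePS_GC and 14 to 20 in pCP_GC against NGE, and those called lower 4 to 8 and 8 to 10. Between tumours 0 to 3 were higher. Over all genes the calls in either direction then numbered 6107 to 8773 in pChePS_GC, 8344 to 10627 in pCP_GC and 26 to 154 between tumours. The 7 falls in pChePS_GC became 11 with arrays centred on their medians, 2 without the dimmest 50% of genes, 2 at an adjusted p under 0.01 and 1 at 2-fold. Over all genes the falls in pChePS_GC went from 4658 to 9101 with that centring. The 9 falls in pCP_GC became 2 without the dimmest 50% of genes, where 22 members were tested, and 1 at 2-fold. Between tumours, limma called 0 members higher with only the tumour groups fitted, with the replicate block and at an adjusted p under 0.01, and 2 with array weights. Over all genes the calls between tumours numbered 0 with only the tumour groups fitted, 0 with the replicate block and 188 with array weights. The causes were not tested, except that fewer genes or stricter thresholds set the counts under those alternatives. The deviations of same-numbered arrays of different groups correlated weakly (r from -0.15 to 0.16 over 10 pairs, 2 above 0.1). Whether the numbers pair the samples was not tested beyond these values. With the replicate block, Mmp7 between tumours had an adjusted p of 0.099, and 18 and 17 members were higher and 7 and 9 lower than NGE in pChePS_GC and pCP_GC. The signal near background limits Mmp1a, Mmp1b, Mmp20, Mmp21, Mmp27 and Adamts20.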

Other observations

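Adamts3 is measured by 16 separate probe sets, which did not tell the same story. The probe set with the highest mean changed by 0.09 in pChePS_GC and 0.10 in pCP_GC, while over all 16 the change against NGE ran from -0.18 to 0.65 in pChePS_GC (13 of 16 above 0) and from -0.15 to 1.39 in pCP_GC (14 of 16 above 0). Statements on this procollagen N-proteinase therefore depend on the probe set.

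Few markers of mast cells and T cells passed. Of 7 mast cell markers 0 rose in pChePS_GC and 1 rose in pCP_GC by limma, and at an unadjusted p under 0.05 the counts were also 0 and 1. Their mean level was 7.11 to 8.42 in pChePS_GC, 8.44 to 9.32 in pCP_GC and 8.03 to 8.96 in NGE. Of 6 T cell markers 0 rose and 1 fell in each tumour group by limma, with the same counts at an unadjusted p under 0.05. Their mean level was 6.89 to 7.66 in pChePS_GC, 7.19 to 7.57 in pCP_GC and 7.24 to 7.31 in NGE.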
